A study of Populus trichocarpa with 18 samples.

Results

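The genes described here had higher transcript levels at 7 h in stem-differentiating-xylem protoplasts of Populus trichocarpa that received the transcription factor PtrSND1-B1, a difference that was no longer seen at 25 h. They were chosen by a rule on the deposited counts. Counts of the first gene model of each locus were divided by the library's total over first models and scaled to a common total, which gives CPM. Rows with at least 1 CPM in at least 3 of the 18 libraries were kept. A pair difference is log2(CPM + 1) in a PtrSND1-B1 library minus log2(CPM + 1) in the sGFP library of the same time and replicate number. A member had a pair difference above 0 in all 3 pairs at 7 h with a mean of at least 0.5. At 25 h its mean was at most 0.1, with at least 1 pair at or below 0. The rule selected 434 of the 26633 rows that passed the CPM filter, among 40668 first models in all. The 7 h and 25 h values chose the members and are therefore given as a description. The 12 h libraries were used by the rule only in the CPM filter, and 12 h is the time at which differences were tested. Except in fits of the 12 h libraries alone, each test took its spread from libraries of all times. Its p-values therefore also draw on the 7 h and 25 h values that chose the members.

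PtrSND1-B1 protoplasts were transfected by polyethylene glycol with PtrSND1-B1 together with sGFP and harvested at 7, 12 or 25 h after transfection. Control protoplasts received sGFP alone by the same procedure and were harvested at the same times. Each of the 6 groups has 3 libraries, and all protoplasts came from greenhouse-grown plants. The sources used here do not give the promoters that drove the transgenes, the number of plants or protoplast isolations, or any pooling. The spread that the p-values measure is therefore that of these libraries and may be technical. First models held 4563708 to 6625569 counts per PtrSND1-B1 library at 7 h and 3478889 to 5976872 at 12 h. The PtrSND1-B1 libraries of 25 h held 2690853 to 5123980. The sGFP libraries held 3541698 to 5454419 counts at 7 h and 4746555 to 9107896 at 12 h, while those of 25 h held 2736863 to 13970708.

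SND1 belongs to the NAC-domain transcription factors that switch on secondary wall formation in fibres and vessels of the xylem. In wood-forming stems such factors act above other regulators, including MYB factors, and above genes for cellulose, xylan and lignin synthesis. Protoplasts are cells whose walls have been removed by enzymes, and DNA taken up by them is expressed transiently, so an effect can be followed over hours. The deposited identifiers are of the POPTR form, and 0 of them matched the gene table at hand, which pairs identifiers with names. Members are therefore described by identifier, level and position in the file, with no role. The lists of secondary wall, photosynthesis, phloem and cell division genes could not be applied, and the labelled tissue was not checked against its markers.

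The model POPTR_0014s10060.1 was taken as the transfected gene partly because of its high level after transfection, and its level therefore cannot check the labels. It was not a member. At 7 h it had 3440, 2080 and 1560 CPM in PtrSND1-B1 libraries and 5.36, 10.7 and 3.85 CPM in sGFP libraries. At 12 h it had 1960, 1080 and 843 CPM with PtrSND1-B1, against 4.28, 9.57 and 3.37 CPM with sGFP. At 25 h it had 1470, 752 and 366 CPM in PtrSND1-B1 libraries, against 2.00, 3.29 and 1.66 CPM in sGFP libraries. For every replicate number the 25 h PtrSND1-B1 level was below the 7 h one, and at each time all PtrSND1-B1 libraries were above all sGFP libraries. The relation of this level to that of the members was not tested.

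The size of the 7 h difference varied over the members. Their mean 7 h difference ran from 0.50 to 2.81 on the log2(CPM + 1) scale, with quartiles of 0.56 and 0.79 around a median of 0.64, and 56 members reached 1 or more. In the 3 pairs the median over members was 0.78, 0.73 and 0.55, while the median over all 26633 rows was -0.02, 0.03 and 0.03. Pair 3 gave the smallest of the 3 differences in 211 members, pair 1 in 107 and pair 2 in 116. All 3 pairs reached 0.5 in 110 members. In 52 members the smallest pair difference was under 0.1, and in 80 a single pair held over 60% of the sum of the 3. All 3 PtrSND1-B1 libraries lay above all 3 sGFP libraries at 7 h in 223 members (51.4%), and in 3.93% of all rows. The rule used this contrast, so nothing is read from that share.

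The threshold cut through a continuous range. The 2 members just inside the 7 h threshold had means of 0.5004 and 0.5004, and the 2 rows just outside had 0.4988 and 0.4995. Means under 0.6 at 7 h were held by 173 members, and 292 further rows met the other criteria with a 7 h mean of 0.4 to under 0.5. At 25 h the 2 members nearest the threshold had means of 0.0986 and 0.0998, and the nearest rows outside had 0.1005 and 0.1006. Of 855 rows that met the 7 h criteria, 434 are the members, 210 were above 0 in all 3 pairs at 25 h and 211 were neither.

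At 25 h the median over members was -0.09, -0.24 and -0.03 in the 3 pairs, and over all rows it was -0.03, -0.04 and 0.10. The mean 25 h difference reached down to -1.43, and it was -0.5 or lower in 38 members. A mean above 0, although under the threshold, was held by 113 members. Pair 2 was at or below 0 in 300 members, pair 1 in 271 and pair 3 in 230. All 3 pairs were below 0 in 67 members (15.4%), and in 11.7% of all rows. The rule used this contrast, and the share is given as a description.

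**Figure D1:**
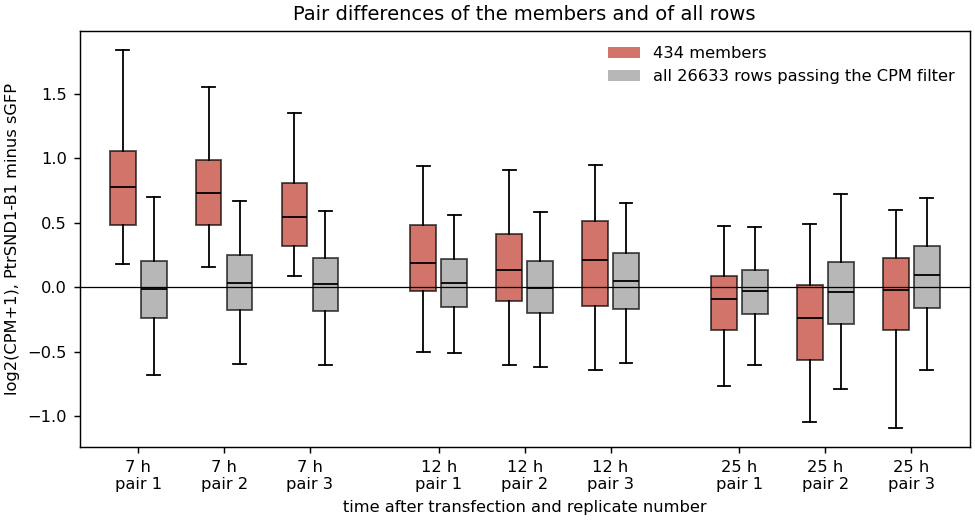
Pair differences in log2(CPM + 1), PtrSND1-B1 minus sGFP, for each time and replicate number, in the 434 members (red) and in all 26633 rows passing the CPM filter (grey); boxes span the quartiles with the median as a line, and whiskers span the 5th to 95th percentiles. Member medians are 0.78, 0.73 and 0.55 at 7 h, 0.19, 0.13 and 0.21 at 12 h, and -0.09, -0.24 and -0.03 at 25 h, and 7 h and 25 h were used by the rule.

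At 12 h the members' difference was small. The median over members was 0.19, 0.13 and 0.21 in the 3 pairs (mean 0.18 ± 0.04, SD, n = 3 pairs), while that over all rows was 0.03, -0.01 and 0.05 (mean 0.03 ± 0.03). Every member median was above the median of all rows in the same pair. The mean 12 h difference lay between the 25 h mean and the 7 h mean in 366 members (84.3%). The rule sets those means apart around 0, so a row with no difference at 12 h would mostly fall between them too, and nothing is read from that count. The 12 h mean was above the 7 h mean in 5 members and at or below the 25 h mean in 63. In bulk RNA, fewer cells of a type and less RNA per cell cannot be told apart, here and in all results that follow.

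Sorted by their 12 h mean, 55 members (12.7%) still had a difference of at least 0.5, against 2.43% of all rows. A further 211 members (48.6%) lay between 0.1 and 0.5, and 168 (38.7%) were at 0.1 or lower. At 12 h, 148 of the 434 members (34.1%) were above 0 in all 3 pairs, against 22% of all rows, and 17 members (3.92%) were below 0 in all 3 pairs, against 15.4% of all rows. Separate groups of libraries were a stricter criterion. All 3 PtrSND1-B1 libraries were above all 3 sGFP libraries at 12 h in 33 members (7.6%), against 1.81% of all rows.

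The 12 h shares were also read by depth, since members had few reads. Summed over the 6 libraries of 12 h, the median member had 103 reads and the median row 367 reads. In the 3 sGFP libraries of 7 h the median was 29 reads over members and 148 reads over all rows. Gene lengths are not in the file, so these figures give the reads behind each value and do not compare transcript abundance between genes. A mean over the 18 libraries under 5 CPM was held by 282 members (65.0%) and by 33.7% of all rows. Among rows under 5 CPM, 77 of 282 members (27.3%) were above 0 in all 3 pairs at 12 h, against 17.2% of all such rows. Among rows with at least 5 CPM, 71 of 152 members (46.7%) were, against 24.4% of all such rows. In the deeper rows 1 member (0.658%) was below 0 in all 3 pairs, against 17.6% of all rows of that depth.

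Rows raised at 7 h that stayed above 0 in all 3 pairs at 25 h had higher 12 h values. In these 210 rows the median 12 h difference was 0.40, 0.45 and 0.42 in the 3 pairs (mean 0.42 ± 0.03, SD, n = 3 pairs), and a mean of at least 0.5 was reached by 86 of them (41.0%). The member medians of 0.19, 0.13 and 0.21 lay below each of these. Members and these rows were separated by their 25 h values, so the difference between them at 12 h is described and not tested. The 310 rows selected by the same rule with every sign turned had a mean of the 12 h pair medians of -0.20 ± 0.04 (SD, n = 3 pairs). Of these rows 43.2% were below 0 in all 3 pairs, against 15.4% of all rows.

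**Figure D2:**
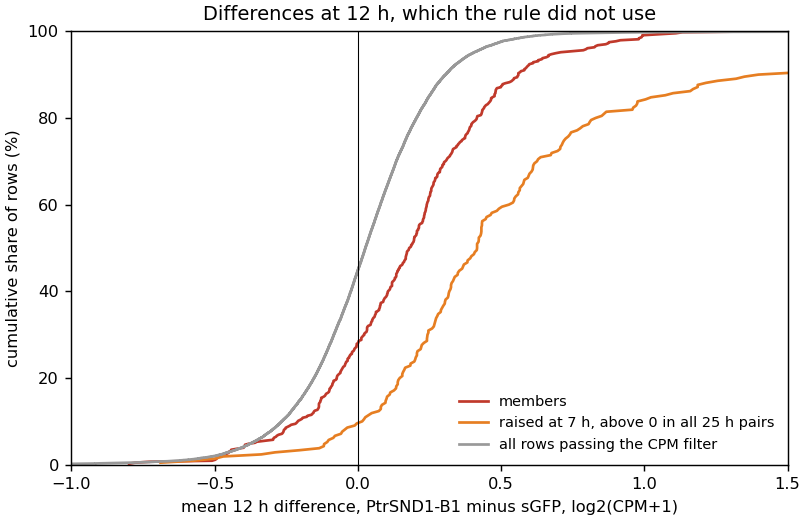
Cumulative share of rows, in percent, against the mean 12 h difference in log2(CPM + 1), PtrSND1-B1 minus sGFP, for the 434 members (red), the 210 rows raised at 7 h and above 0 in all 25 h pairs (orange) and all 26633 rows (grey); values outside -1 to 1.5 are not drawn. The member curve runs between the others above 0, and 12.7% of members, 41.0% of the 210 rows and 2.43% of all rows have a mean of at least 0.5.

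Tested gene by gene at 12 h, few members passed. edgeR's quasi-likelihood test with Benjamini-Hochberg adjustment was run on 23777 rows that passed a filter on low counts, and 353 of the 434 members were among them. The other members had too few reads and were not tested. A row could pass the filter through the 7 h PtrSND1-B1 libraries alone, so the 353 do not stand for all members. Without a block, 0 members were called higher, against 0.00841% of all tested rows, and 0 were called lower, against 0%. At an unadjusted p under 0.05 in the same test, 21 members (5.95%) were higher, against 0.732% of all tested rows, and 0 were lower, against 0.639%. Those shares of all tested rows are low for a cutoff of 0.05, so this fit called few rows of any kind. Its 0 calls do not show that differences were absent. DESeq2 called 12 genes at 12 h, of which 0 were members. With the replicate number as a block, 0 members were called higher, against 0.0421%, and 0 lower, against 0.0168%.

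Libraries of the same time and number deviated together, so a fit with a term for each time and number was also used, called the paired fit. In the paired fit 6 members (1.7%) were higher with PtrSND1-B1 at 12 h (adjusted p under 0.05), against 0.488% of all tested rows. At the same cutoff 0 members were lower, against 0.774%. At an unadjusted p under 0.05 in the paired fit, 64 members (18.1%) were higher, against 6.59% of all tested rows, and 0 were lower, against 7.71%. The spread in this fit also came from the 7 h and 25 h pairs that chose the members, which bears on these shares. The log2 fold changes of the 6 calls ran from 0.53 to 1.79, with a median of 1.26. Without the pair of replicate 1 or of replicate 2 at 12 h, 0 members were called, and without the pair of replicate 3, 1 was called. For reference, the paired fit called 91 members (25.8%) higher at 7 h, against 1.56% of all tested rows. Its effect at 25 h was lower than that at 7 h in 9 members (2.55%), against 0.0589%. The rule used the contrasts behind these 2 counts, and nothing is read from them.

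POPTR_0001s15430.1 had the largest mean difference of all members at 7 h and at 12 h. At 7 h it had 25.0, 13.9 and 14.9 CPM in PtrSND1-B1 libraries, against 2.54, 0.889 and 1.65 CPM in sGFP libraries. At 12 h it had 6.69, 6.61 and 6.65 CPM with PtrSND1-B1 (40, 23 and 31 reads), and 1.43, 1.20 and 3.37 CPM with sGFP (13, 8 and 16 reads). The groups did not overlap at either time. In edgeR's paired fit it was higher with PtrSND1-B1 than with sGFP at 12 h by 1.79 on the log2 scale (SE 0.329, adjusted p = 0.0146). Without a block the fold change was 1.76 with an edgeR adjusted p of 1.0, and over all alternatives run the adjusted p lay between 8.96e-08 and 1.0. At 25 h it had 4.68, 1.86 and 1.84 CPM with PtrSND1-B1 and 2.58, 4.02 and 1.92 CPM with sGFP, and the groups overlapped. This was the member still called in the paired fit when the 12 h pair of replicate 3 was left out.

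POPTR_0014s12380.1 was also called higher with PtrSND1-B1 than with sGFP at 12 h in the paired fit, with many more reads behind it. It had 67.8, 61.2 and 79.2 CPM in PtrSND1-B1 libraries at 12 h, against 46.0, 39.0 and 55.8 CPM in sGFP libraries. On the log2 scale this was 0.53 in edgeR's paired fit (SE 0.0992, adjusted p = 0.0167) and 0.52 without a block (adjusted p = 1.0). Over all alternatives run, the adjusted p lay between 4.69e-05 and 1.0. Leaving out any of the 3 pairs of 12 h ended this call. At 7 h its levels were 202, 161 and 133 CPM with PtrSND1-B1 and 100, 75.6 and 85.3 CPM with sGFP. At 25 h they were 48.6, 45.0 and 55.1 CPM with PtrSND1-B1 and 41.0, 47.1 and 51.7 CPM with sGFP. The groups were apart at 7 and 12 h and overlapped at 25 h, and both constructs had their lowest mean at 25 h.

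The second largest mean difference at 7 h rested on very few reads. POPTR_0009s05630.1 had 29, 25 and 12 reads in PtrSND1-B1 libraries at 7 h and 1, 1 and 0 reads in sGFP libraries. At 12 h it had 7, 4 and 2 reads with PtrSND1-B1, against 0, 2 and 0 with sGFP. At 25 h it had 1, 0 and 0 reads with PtrSND1-B1, against 2, 0 and 0 with sGFP. The row did not pass the low-count filter and was not tested.

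The member with the most counts behaved otherwise. POPTR_0006s22860.1 had 142, 109 and 62.0 CPM in PtrSND1-B1 libraries at 7 h, against 23.7, 30.5 and 24.2 CPM in sGFP libraries. At 12 h it had 487, 131 and 127 CPM with PtrSND1-B1 and 304, 199 and 147 CPM with sGFP. At 25 h it had 2250, 738 and 572 CPM with PtrSND1-B1 and 2110, 814 and 812 CPM with sGFP. The groups were apart at 7 h and overlapped at 12 and 25 h, while the lowest 25 h library of either construct was above every 7 h library. Replicate 1 was the highest library of its group at 12 and 25 h with either construct. The 12 h pair difference was -0.05 ± 0.66 on the log2(CPM + 1) scale (SD, n = 3 pairs).

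POPTR_0004s07440.1 followed the same course with smaller differences. At 7 h it had 130, 87.1 and 91.6 CPM with PtrSND1-B1, against 80.5, 57.6 and 54.3 CPM with sGFP. At 12 h it had 189, 115 and 125 CPM with PtrSND1-B1 and 158, 107 and 125 CPM with sGFP. At 25 h the values were 252, 236 and 273 CPM with PtrSND1-B1 and 257, 216 and 285 CPM with sGFP. The groups were apart at 7 h and overlapped at 12 and 25 h, and both means were highest at 25 h.

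**Figure D3:**
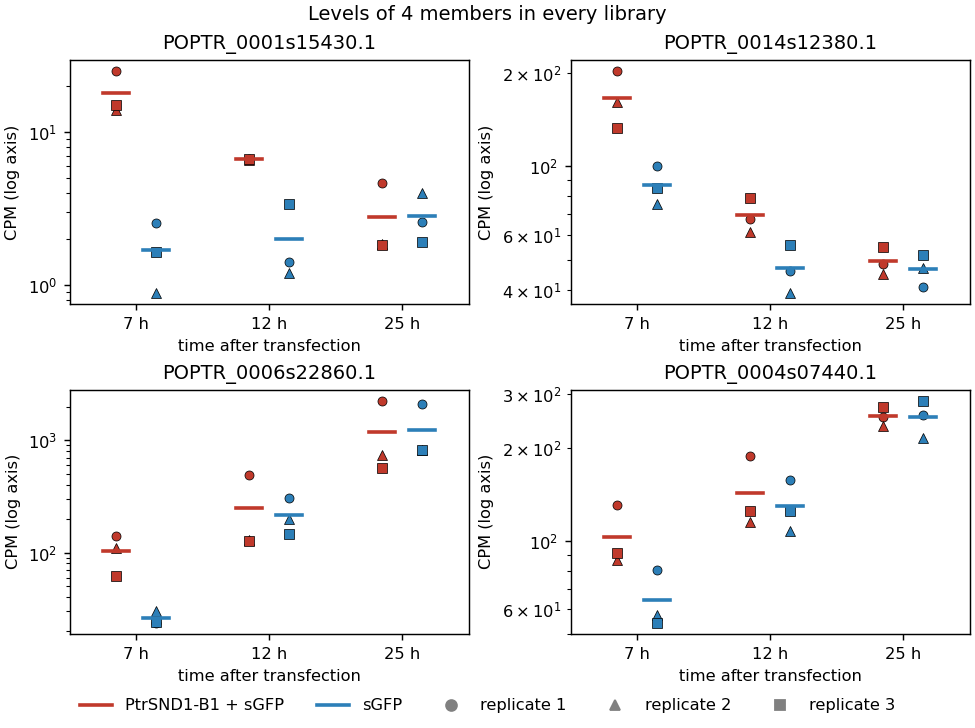
CPM of 4 members in every library, on log axes, with PtrSND1-B1 in red left of sGFP in blue at each time; symbols mark replicate numbers and bars the means of 3 libraries. The upper members, POPTR_0001s15430.1 and POPTR_0014s12380.1, had lower PtrSND1-B1 levels at 25 h than at 7 h, and the lower members, POPTR_0006s22860.1 and POPTR_0004s07440.1, had higher levels of both constructs at 25 h than at 7 h.

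The members were sorted by the course of each construct, in a division made after the values were seen. A member was placed by its mean log2(CPM + 1) at 25 h minus that at 7 h. In 220 members (50.7%) the PtrSND1-B1 level was lower at 25 h by at least 0.5, while the sGFP level was not higher by that much. In 139 members (32.0%) the sGFP level was higher at 25 h by at least 0.5, while the PtrSND1-B1 level was not lower by that much. Both held in 24 members (5.53%), POPTR_0001s15430.1 among them, and neither in 51 (11.8%). POPTR_0014s12380.1 belongs to the 220, and POPTR_0006s22860.1 and POPTR_0004s07440.1 to the 139. The classes differ in which construct's level changed because the division was made on that change. The rule itself asks for a smaller difference at 25 h, so the division describes the members and tests nothing.

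Over all members the PtrSND1-B1 level changed by a median of -0.65 between 7 and 25 h, and the sGFP level by 0.26. Over all rows the medians were -0.17 with PtrSND1-B1 and -0.15 with sGFP. The PtrSND1-B1 level was lower by at least 0.5 in 56.2% of members, against 27.5% of all rows. The sGFP level was higher by at least 0.5 in 37.6% of members, against 14.6% of all rows. High PtrSND1-B1 or low sGFP values at 7 h favoured the choice of a row, which bears on these shares.

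**Figure D4:**
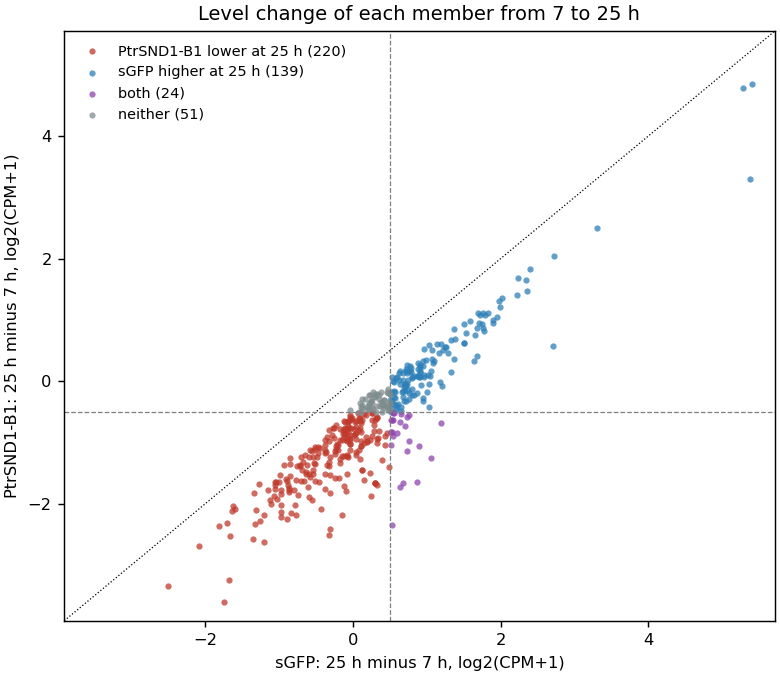
Change of the mean log2(CPM + 1) between 7 and 25 h with PtrSND1-B1 (vertical axis) and with sGFP (horizontal axis), 1 point per member; dashed lines mark -0.5 and 0.5, the dotted line marks equal change, and colours mark the division. All points lie below the dotted line because of the rule, with 220 members in the class where PtrSND1-B1 is lower, 139 where sGFP is higher, 24 in both and 51 in neither.

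In the 220 members with a lower PtrSND1-B1 level at 25 h, the library medians of log2(CPM + 1) were 2.43 ± 0.05 at 7 h, 1.79 ± 0.21 at 12 h and 1.05 ± 0.09 at 25 h with PtrSND1-B1 (SD, n = 3 libraries each). With sGFP they were 1.58 ± 0.10 at 7 h, 1.59 ± 0.24 at 12 h and 1.19 ± 0.15 at 25 h. In 209 of the 220 the PtrSND1-B1 level was already lower at 12 h than at 7 h. The 12 h pair difference had medians of 0.26, 0.18 and 0.27 in the 3 pairs. Of these members 83 (37.7%) were above 0 in all 3 pairs, against 22% of all rows. Their mean CPM had a median of 2.32, and among all rows under 5 CPM the share was 17.2%. A share at matched depth was not computed for this class.

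The 139 members with a higher sGFP level at 25 h followed another course. Their library medians were 2.17 ± 0.14 at 7 h, 2.35 ± 0.13 at 12 h and 2.49 ± 0.23 at 25 h with PtrSND1-B1 (SD, n = 3 libraries each). With sGFP they were 1.5 ± 0.08 at 7 h, 2.23 ± 0.25 at 12 h and 2.58 ± 0.27 at 25 h. In 133 of the 139 the sGFP level was higher at 12 h than at 7 h. This count also reuses the 7 h level that chose the rows, and nothing is read from it. The 12 h pair difference had medians of 0.20, 0.06 and 0.10. Of these members 40 (28.8%) were above 0 in all 3 pairs, against 22% of all rows. Their mean CPM had a median of 4.32, and the share was 17.2% of all rows under 5 CPM and 24.4% of deeper rows. A share at matched depth was not computed for this class, and nothing is read from the 40. The 12 h medians of this class were below those of the 220 members in each pair, which was not tested.

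The remaining classes are smaller. In the 24 members of both kinds the medians were 2.37 ± 0.15 at 7 h, 2.04 ± 0.65 at 12 h and 1.40 ± 0.18 at 25 h with PtrSND1-B1, and 1.08 ± 0.24, 1.67 ± 0.20 and 1.74 ± 0.19 at the same times with sGFP (SD, n = 3 libraries each). Their 12 h difference was 0.30 ± 0.25 (SD, n = 3 pairs). In the 51 members of neither kind the medians were 2.76 ± 0.06, 2.58 ± 0.38 and 2.5 ± 0.24 with PtrSND1-B1, and 2.16 ± 0.36, 2.43 ± 0.35 and 2.55 ± 0.16 with sGFP, at 7, 12 and 25 h. Their 12 h difference was 0.13 ± 0.09. The 6 members called in the paired fit fall into all of these classes, with 3 in the class where PtrSND1-B1 was lower at 25 h and 1 in each of the others.

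**Figure D5:**
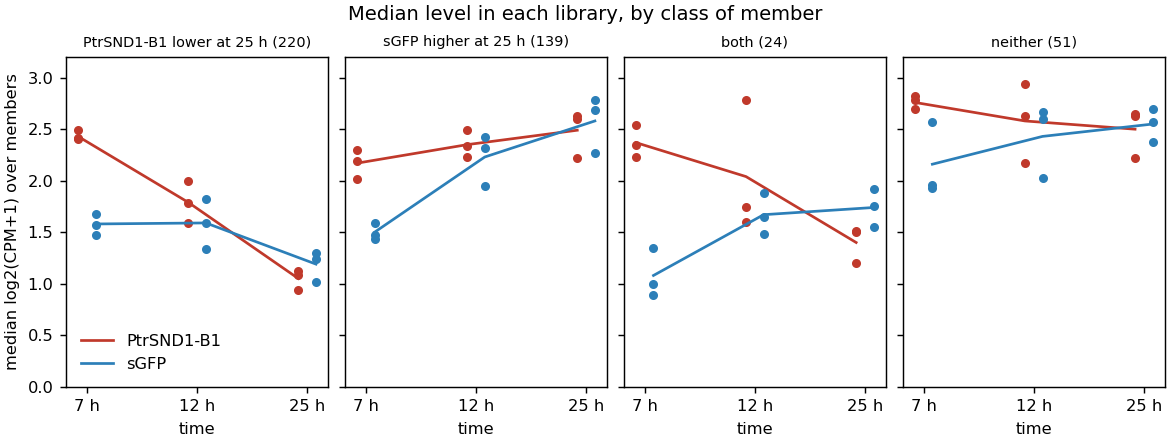
Median log2(CPM + 1) over the members of each class in every library (points) and the mean of the 3 library medians (lines) at 7, 12 and 25 h, with PtrSND1-B1 in red and sGFP in blue. In the first class the PtrSND1-B1 line runs through 2.43, 1.79 and 1.05 and ends below the sGFP line, which is at 1.19 at 25 h. In the second the sGFP line runs through 1.5, 2.23 and 2.58 and ends above the PtrSND1-B1 line, which is at 2.49.

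The lowest mean 12 h difference, -0.80, was that of POPTR_0001s43640.1, which had 1, 6 and 0 reads in PtrSND1-B1 libraries and 19, 11 and 5 reads in sGFP libraries and was not tested. POPTR_0019s08775.1, with the next lowest mean of -0.78, had 0.335, 9.20 and 0.215 CPM in PtrSND1-B1 libraries at 12 h and 4.83, 4.79 and 1.47 CPM in sGFP libraries. Replicate 2 of PtrSND1-B1 was the highest of the 6 libraries and the other 2 PtrSND1-B1 libraries were the lowest. Its log2 fold change of -0.47 did not pass the test without a block (edgeR adjusted p = 1.0). It stands in the file beside 2 other members.

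The lowest mean at 25 h was that of POPTR_0004s12790.1. At 7 h it had 4.60, 4.80 and 5.89 CPM in PtrSND1-B1 libraries, against 0, 4.22 and 5.13 CPM in sGFP libraries, so that 1 pair (2.49, 0.15 and 0.17) carried its 7 h mean. At 25 h it had 1.76, 0.372 and 0.612 CPM with PtrSND1-B1 and 4.01, 3.29 and 4.60 CPM with sGFP. The groups did not overlap at 25 h. The rule used both times, and no test is given.

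Some members stood side by side in the file. Of the 434 members, 44 (10.1%) had a member as the next or the preceding row among those that passed the CPM filter, and of 26199 other rows 798 (3.05%) did. They form 20 runs, of which 17 hold 2 members, 2 hold 3 and 1 holds 4. All members of a run belonged to the same class in 14 of the 20, a count with no share for members standing apart beside it. POPTR_0006s22860.1 and POPTR_0004s07440.1 both stand in such runs. Rows that share reads inflate this count, since 5 member rows had the same counts as another first model in all 18 libraries. The run of 4 contains 3 of these rows, whose 7 h mean of 1.21 is therefore 1 measurement. Rows with nearly equal counts are not among the 5. The other row of that run, POPTR_0013s06860.1, had a 7 h mean of 1.25. POPTR_0006s18810.1 and POPTR_0006s18820.1 had means of 0.54 and 0.54 at 7 h and of -0.81 and -0.8 at 25 h. Whether such rows share reads was not tested, so the runs are not counted as independent. The 434 members have 431 distinct sets of counts.

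Other rows were ranked by how similar their 9 pair differences were to those of single members. For the 6 members with the largest 7 h mean, the row with the most similar 9 pair differences had a Pearson correlation of 0.96 to 0.988 with it, over 9 pairs, with both rows read in the same libraries. These are the highest values among all rows on few points, and 6 of the 9 differences were used by the rule, so they are a description. That row was itself a member in 1 of the 6 cases. As a share of library counts, members took 0.437 to 0.456% in PtrSND1-B1 libraries and 0.238 to 0.288% in sGFP libraries at 7 h. At 12 h the shares were 0.359 to 0.398% with PtrSND1-B1 and 0.286 to 0.336% with sGFP, and at 25 h they were 0.374 to 0.6% with PtrSND1-B1 and 0.4 to 0.610% with sGFP. The ranges were apart at 7 and 12 h and overlapped at 25 h, but the separation of the 12 h ranges rested on a single member, POPTR_0006s22860.1. Without it the 12 h shares were 0.31 to 0.386% with PtrSND1-B1 and 0.255 to 0.321% with sGFP, which overlap. Within each replicate number the PtrSND1-B1 share stayed the higher at 12 h (0.31, 0.356 and 0.386% against 0.255, 0.315 and 0.321%). Without that member the 7 h shares were 0.426 to 0.445% with PtrSND1-B1 and 0.236 to 0.285% with sGFP. At 25 h they were 0.317 to 0.376% with PtrSND1-B1 and 0.318 to 0.417% with sGFP. Leaving out that member was chosen after seeing the data.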

How the data were processed

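RNA-seq of Populus trichocarpa protoplasts gave 18 libraries in 6 groups of 3, mapped to groups by their titles. The authors deposited raw counts, whole numbers of reads per gene model. The submitters' processing notes name TopHat and edgeR, with no role or version. The genome build, annotation, counting tool and strandedness remain not given in the sources used here, so genes that share or overlap reads are uncertain. First models of each locus were used, and CPM was computed from their totals. The members and lists were chosen with earlier results of these data known.

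Counts were tested with edgeR 4.0.16 (R 4.3.3): filterByExpr, TMM, glmQLFit on all 18 libraries (12 residual degrees of freedom) and Benjamini-Hochberg adjustment over 23777 rows, called under 0.05. Alternatives were the replicate number as a block (10 degrees of freedom), a paired fit with a term per time and number (6), DESeq2 1.42.0, other scalings, filters and pseudocounts, leaving out each 12 h library in the tests, and leaving out each replicate pair in the rule and the pair differences. Standard errors were taken as the log2 fold change over the square root of F. Same-numbered libraries of a time had deviations correlated at 0.345 to 0.752, all over 0.1, so numbers were taken as pairs from the data, not the labels. The paired values stand beside the others where they change a call. Scripts were tested on simulated data. Genes are named by rule: called at 12 h, largest or smallest differences at each time, and highest CPM. Because 0 identifiers matched a name, only a few of these are printed, and no sequences are shown. Counting error sets the precision of rows with few reads, and without molecular identifiers reads may be copies of 1 molecule.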

Additional observations from a re-analysis of the deposited data

Results flagged for a closer look

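At 12 h, 17 members (3.92%, against 15.4% of all rows) were below 0 in all 3 pairs although the rule took them above 0 in all 3 pairs at 7 h; 16 of these had a mean under 5 CPM. The difference between the times was not tested in them. At 25 h, 67 members (15.4%, against 11.7% of all rows) were below 0 in all 3 pairs; the rule used both times, and the difference was not tested.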

How the results depend on the processing

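At 12 h the fit without a block called 2 genes and 0 members. The replicate block, with the number as an additive term, called 14 genes and 0 members. The paired fit called 300 genes and 6 members. With the 12 h libraries alone 0 genes were called, DESeq2 called 12, and leaving out 1 library gave 1 to 2, with 0 members each time. The paired fit called 32 to 79 genes and 0 to 1 members without 1 of the 12 h pairs. It called 1069 genes and 14 members with the 12 h libraries alone, and 1011 genes and 22 members with no low-count filter. The last 2 settings were chosen after seeing the data, as was leaving out a pair. They use other libraries or another filter, and the shares of tested rows and members called were not computed. Nothing is therefore read from the 14 and 22 members. The cause of the differences between settings was not tested.

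The number of members was 105 with a pseudocount of 5 CPM (89 of them among the 434), 222 with a minimum of 5 CPM, and 386 to 789 without 1 library pair of 7 or 25 h. Leaving out a 7 h pair gave 668 to 789, because a criterion then covers fewer pairs. Members above 0 in all 12 h pairs numbered 66 with a pseudocount of 5 CPM and 95 with a minimum of 5 CPM, beside 148. As shares of the members remaining these are 62.9% and 42.8%, beside 34.1%. A pseudocount does not change the sign of a difference, so the share of all rows stays at 22% with 5 CPM. For the minimum of 5 CPM in 3 libraries that share was not computed. Among all rows with a mean of at least 5 CPM it was 24.4%. The median 12 h difference was 0.25 with a pseudocount of 5 CPM, beside 0.18, and stayed above 0 in every setting run.

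POPTR_0019s08775.1 at 12 h, -0.47 in the fit without a block, ran from -3.66 to 0.12 without 1 library (0.10 without PtrSND1-B1 replicate 1 and 0.12 without PtrSND1-B1 replicate 3), and was 0.46 in the paired fit without the pair of replicate 1. Depth limits the rows of few reads, and 353 of the 434 members could be tested.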
